A study of Mus musculus with 10 samples.

Results

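Parp9, Dtx3l, Parp10, Parp11, Parp12 and Parp14 were examined in RNA from the RPE/choroid complex of the mouse eye, the retinal pigment epithelium together with the vascular layer behind it. These 6 genes were taken from the count table by symbol, as members of the PARP family linked to interferon responses and the ubiquitin ligase partner of one of them. They are 6 of 55487 distinct genes in the table, each symbol matched 1 gene, and all 6 passed the low-count filter. The study asked what ablation of adipocytes does to this tissue. All mice were iDTR animals, which carry at the Rosa locus a diphtheria toxin receptor that is made where Cre is active, and all received diphtheria toxin by intraperitoneal injection. In the 5 control samples the label gives the iDTR genotype without Cre. In the 5 ADQ samples the mice also carried adiponectin-Cre, whose promoter is active in fat cells, so that the toxin acts on those cells throughout the body and not in the eye alone. Per the series design, toxin was given daily over 7 weeks to the Cre animals; the duration in controls is not stated. No age is stated. The labels do not tie samples to individual animals, so a p-value here reflects only how far these samples spread, which may be technical.

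PARP enzymes transfer ADP-ribose from NAD to proteins and nucleic acids. A founding member, Parp1, builds long chains at DNA breaks, whereas most of the family attaches single ADP-ribose units. A subset is induced by interferons through the STAT and IRF transcription factors. Parp9 and Dtx3l proteins bind each other in a complex that joins ADP-ribosylation to ubiquitylation and acts in interferon signalling and DNA damage responses. Parp14 carries macrodomains, which bind ADP-ribose, and is known for its part in IL-4 and STAT6 signalling. Parp10, Parp11 and Parp12 are mono-ADP-ribosyltransferases, and Parp12, a zinc finger protein, is known for restricting viruses.

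The 10 libraries held 43.6 to 64.1 M counts, and the members held between 489 and 3493 counts in a library, so that counting error alone was at most 4.52% of a value. Levels are given as CPM, counts scaled to a library of 1 M, after TMM scaling, which corrects for differences in library composition. Markers of the labelled tissue were abundant: the 10 RPE markers summed to 40923 to 57710 CPM in control and 33894 to 50658 CPM in ADQ, and all 8 endothelial markers of the choroid were detected in every library. Some libraries stood apart in other tissue. Control 3 held the highest sum of corneal and conjunctival keratins (2261 CPM) and control 5 the highest control sums of macrophage and of lymphocyte and NK cell markers. Control 1 was the control with the highest rod photoreceptor sum (2172 CPM), and the highest such sum in ADQ was 3971 CPM. ADQ 5 had the lowest skeletal muscle sum (449 CPM). ADQ 3 had the lowest ADQ sums of RPE, of macrophage and of lymphocyte and NK cell markers, and the largest TMM factor (1.13). Results are therefore also given without single libraries.

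Dtx3l, Parp14 and Parp9 rose in ADQ after adjustment over all 20684 genes tested, by 1.66-, 1.62- and 1.52-fold. Parp12, Parp10 and Parp11 did not pass, with estimates of 1.47-, 1.29- and 1.26-fold. At an edgeR adjusted p under 0.05, 3 of the 6 members were called, all 3 higher, against 0.827% of all genes tested in either direction, 0.740% higher and 0.0870% lower. All 6 had a log2 fold change above 0, as did 51.8% of all genes. The median log2 fold change of the 6 was 0.58, with a range of 0.34 to 0.73, and that of all genes was 0.01. All 6 had an unadjusted p under 0.05 in that direction, as did 7.96% of all genes. In bulk tissue a change in the number of cells that express a gene and a change in RNA per cell cannot be told apart.

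Dtx3l encodes the E3 ubiquitin ligase of the pair. It was at 11.2, 11.1, 14.8, 13.6 and 13.99 CPM in controls 1 to 5, and at 19.3, 21.1, 25.7, 21.5 and 19.9 CPM in ADQ 1 to 5. Every ADQ library lay above every control library, and the highest was ADQ 3. Dtx3l thus rose from 12.9 ± 1.68 to 21.5 ± 2.51 CPM (SD, n = 5 each), a log2 fold change of 0.73 (SE 0.12, 95% interval 0.48 to 0.98, edgeR adjusted p = 0.00821). It kept its call without any 1 of the 10 libraries, where the edgeR adjusted p ran from 0.00558 to 0.0323.

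Parp9, the partner of Dtx3l, was at 21.1, 20.6, 31.2, 21.7 and 24.3 CPM in controls 1 to 5. In ADQ 1 to 5 it was at 32.0, 38.2, 40.0, 35.2 and 35.1 CPM. The groups did not overlap, but control 3 came close to ADQ 1. Groups without overlap in this direction were found for 3 of the 6 members, Parp9, Dtx3l and Parp10, and for 2.09% of all genes. Parp9 rose from 23.8 ± 4.39 to 36.1 ± 3.10 CPM (SD, n = 5), a log2 fold change of 0.60 (SE 0.12, 95% interval 0.35 to 0.86, edgeR adjusted p = 0.0293). The call was lost without any 1 of 7 libraries, with an adjusted p of up to 0.105 without control 4, and over those 7 the log2 fold change ran from 0.56 to 0.61. Without control 3 the log2 fold change was 0.72 and the edgeR adjusted p 0.00354, but control 3 was its highest control, so leaving it out widens the difference by itself.

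**Figure D1:**
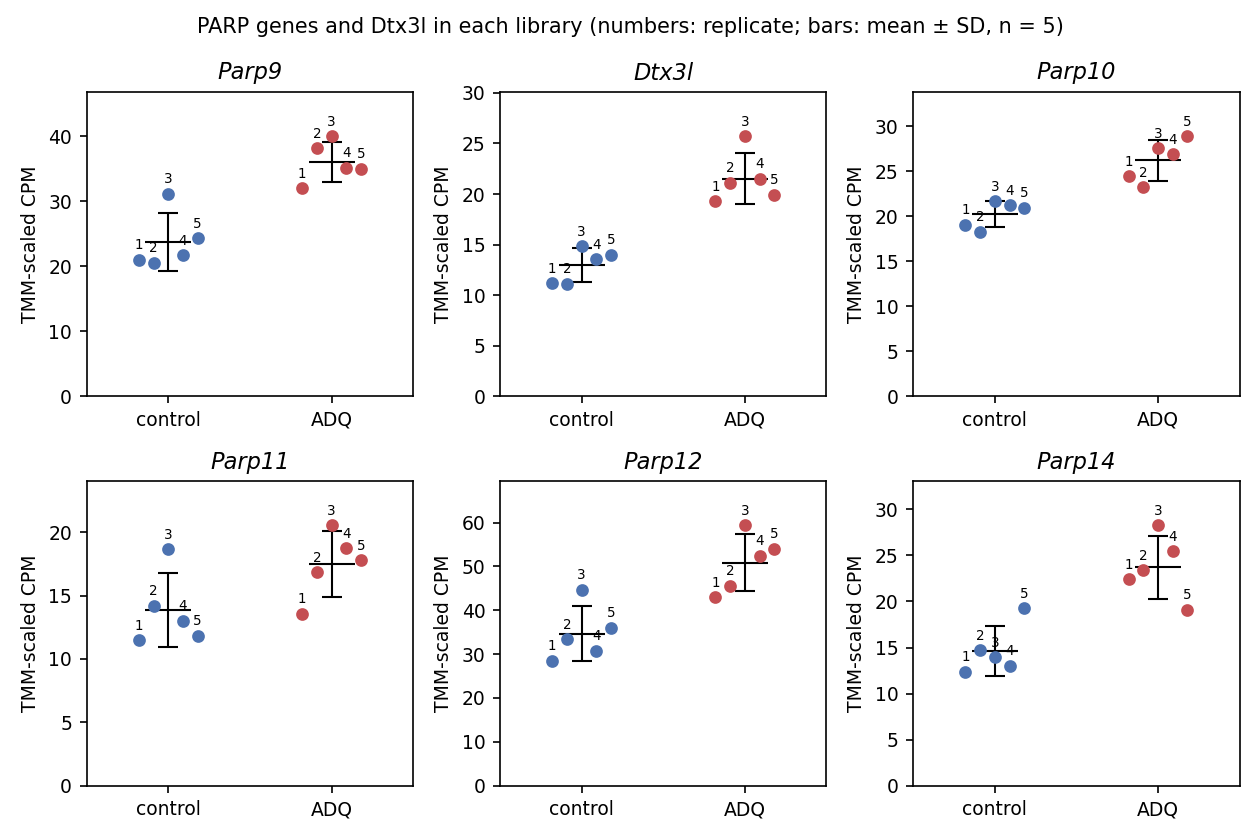
TMM-scaled CPM (vertical axes, from 0) of the 6 genes in each control (blue) and ADQ (red) library; numbers give the replicate, and black bars the mean ± SD of 5 libraries. The groups do not overlap for Parp9, Dtx3l and Parp10, while control 3 reaches into the ADQ range of Parp11 and Parp12 and control 5 into that of Parp14.

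Since both proteins act in 1 complex, the ratio of Dtx3l to Parp9 counts was compared within each library. It was 0.532, 0.542, 0.475, 0.625 and 0.575 in controls 1 to 5 and 0.602, 0.553, 0.642, 0.611 and 0.568 in ADQ 1 to 5. The ranges overlapped, with means of 0.550 ± 0.0554 and 0.595 ± 0.0354 (SD, n = 5). The log2 ratio differed by 0.12 (exact two-sided permutation p = 0.159 over all assignments of 5 and 5 libraries). A difference in the ratio was thus not shown. Of the 10 omissions of 1 library, 1 gave a p under 0.05: without control 4, which had the highest control ratio and whose omission widens the difference by itself, the log2 difference was 0.17 (exact permutation p = 0.0397). The first exon of Dtx3l, 458 bp, lies wholly within annotated exons of Parp9 on the opposite strand, which is 9.40% of the exon length of Parp9 and 8.0% of that of Dtx3l. No source used here says whether the counting used strand, so reads from that stretch may have been counted for either gene or for neither.

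Parp14 was at 12.4, 14.7, 13.97, 13.0 and 19.2 CPM in controls 1 to 5 and at 22.4, 23.4, 28.2, 25.5 and 19.1 CPM in ADQ 1 to 5. Control 5 and ADQ 5 met at the same level, and the other 4 ADQ libraries lay above all controls. Parp14 rose from 14.7 ± 2.71 to 23.7 ± 3.42 CPM (SD, n = 5), a log2 fold change of 0.69 (SE 0.14, 95% interval 0.40 to 0.98, edgeR adjusted p = 0.0293). It lost its call without any 1 of 7 libraries, with an adjusted p of up to 0.101 without control 4. Without control 5 the log2 fold change was 0.81 and the edgeR adjusted p 0.00253, but control 5 was its highest control, so leaving it out widens the difference by itself.

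In the reported fit, the 3 members called higher are the 3 that lie together on chromosome 16, in GENCODE M21 positions on GRCm38. This depends on the fit. DESeq2 and voom also called Parp12 and Parp10, on chromosomes 6 and 15. Without control 1, 2 or 4, or ADQ 2, 3 or 4, Dtx3l was the only member called. Parp14 (ENSMUSG00000034422) spans 35832874 to 35871544 on the minus strand. Dtx3l (ENSMUSG00000049502) spans 35926511 to 35939151 on the minus strand, 54.97 kb further on. Parp9 (ENSMUSG00000022906) runs the other way, from 35938470 to 35972605 on the plus strand, and its span shares 682 bp with the 5′ end of Dtx3l. Whether the 3 genes of chromosome 16 differ in response from the other 3 was not tested, and the estimate for Parp12 lies near that for Parp9.

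Genes around the members were not called. Of 20 other tested genes within 100 kb of any member, 0 passed in either direction with edgeR, voom or DESeq2. With edgeR 0.827% of all genes passed in either direction, so 0 of 20 does not set these neighbours apart from other genes. Their log2 fold changes ran from -0.25 to 0.39 with a median of -0.06. Among them 2 had an unadjusted p under 0.05: Tbxas1 and Plec. Tbxas1 encodes thromboxane synthase, and its span lies 1.82 kb from that of Parp12. Plec encodes the cytolinker plectin. Tbxas1 had 13.8 ± 1.47 CPM in control and 17.6 ± 1.80 in ADQ (log2 fold change 0.35, SE 0.11, edgeR adjusted p = 0.175). Plec was at 150.8 ± 14.2 and 129.6 ± 13.8 CPM (log2 fold change -0.22, edgeR adjusted p = 0.340). On chromosome 16, Hspbap1, 4.40 kb from Parp14, had a log2 fold change of -0.13, and the importin gene Kpna1, 6.14 kb from Parp9, had one of 0.16. Gm15564, an antisense gene that overlaps the span of Parp9 but none of its exons, was abundant at 657 ± 217 CPM in control and 604 ± 121 in ADQ (log2 fold change -0.12, edgeR adjusted p = 0.831).

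**Figure D2:**
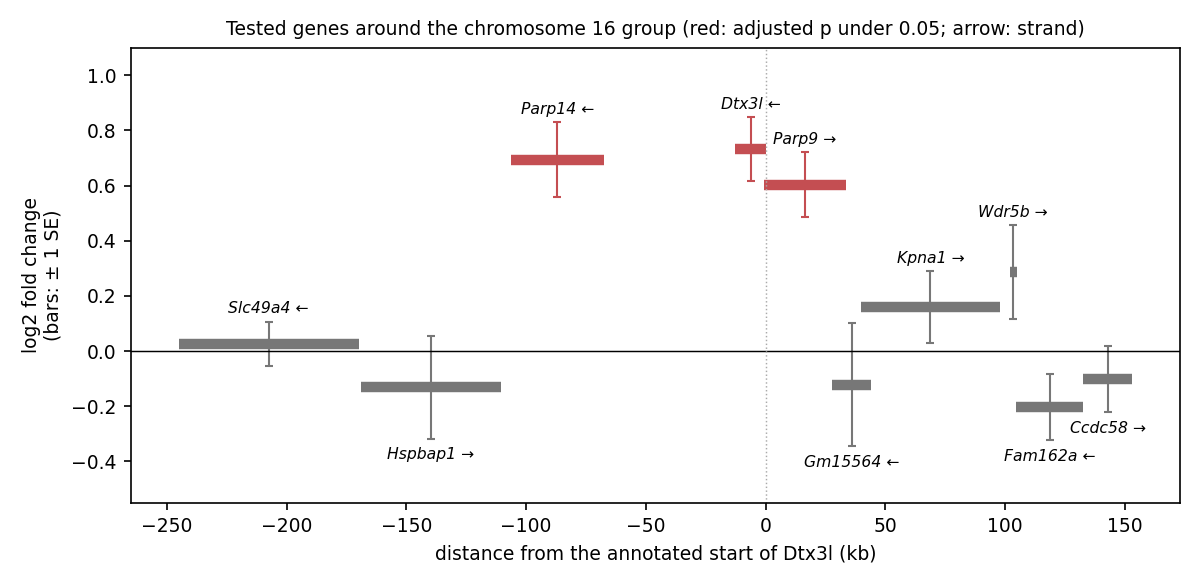
Log2 fold change, ADQ over control (vertical axis; thin bars ± 1 SE), of the tested genes around Parp14, Dtx3l and Parp9, drawn as thick bars over their spans in kb from the annotated start of Dtx3l; arrows give the strand. The 3 members stand at 0.60 to 0.73 (red, adjusted p under 0.05) and the 7 neighbours between -0.20 and 0.29 (grey, not called).

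Parp12 (ENSMUSG00000038507, chromosome 6, 39086410 to 39118349, minus strand) was at 28.5, 33.4, 44.7, 30.8 and 36.1 CPM in controls 1 to 5. In ADQ 1 to 5 it was at 43.0, 45.6, 59.3, 52.4 and 54.1 CPM. Control 3 reached above ADQ 1, and the remaining controls lay below all ADQ libraries. The means were 34.7 ± 6.27 and 50.9 ± 6.59 CPM (SD, n = 5), with a log2 fold change of 0.55 (SE 0.13, 95% interval 0.28 to 0.82, edgeR adjusted p = 0.0632). Parp12 therefore missed the threshold, and it passed without control 3 (log2 fold change 0.66, edgeR adjusted p = 0.0131) or without ADQ 1 (0.61, adjusted p = 0.0451). These were its highest control and its lowest ADQ library, so that either omission widens the difference by itself.

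Parp10 (ENSMUSG00000063268, chromosome 15, 76231174 to 76243441, minus strand) was at 19.1, 18.3, 21.7, 21.2 and 20.9 CPM in controls 1 to 5. It was at 24.4, 23.3, 27.6, 26.9 and 28.9 CPM in ADQ 1 to 5. The groups did not overlap, and Parp10 had the smallest spread of the 6 in control relative to its mean, but the difference was small. Means were 20.3 ± 1.47 and 26.2 ± 2.31 CPM (SD, n = 5), with a log2 fold change of 0.37 (SE 0.09, 95% interval 0.18 to 0.57, edgeR adjusted p = 0.0863). It did not pass without any 1 library, the edgeR adjusted p then running from 0.0730 to 0.189. Parp10 shares 205 bp of exon, 4.80% of its exon length, with Plec on the same strand, so some reads may belong to either gene.

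Parp11 (ENSMUSG00000037997, chromosome 6, 127446840 to 127494261, plus strand) was at 11.5, 14.2, 18.7, 13.0 and 11.8 CPM in controls 1 to 5. It was at 13.6, 16.8, 20.5, 18.7 and 17.8 CPM in ADQ 1 to 5. Control 3 lay among the ADQ libraries and ADQ 1 among the controls. The means of 13.8 ± 2.91 and 17.5 ± 2.58 CPM (SD, n = 5) gave a log2 fold change of 0.34 (SE 0.15, 95% interval 0.02 to 0.65, edgeR adjusted p = 0.334). Parp11 passed under none of the 19 alternatives, with an adjusted p from 0.0812 to 0.605. Parp11 lies 88.3 Mb from Parp12 on the same chromosome.

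Sequence before the start sites was looked at for motifs of interferon signalling, since the 6 genes were chosen for that link. RefSeq windows on GRCm38.p6, from 250 bases before to 50 after a start, were matched by symbol for 3 of the 6 members: Dtx3l, Parp11 and Parp12. The interferon-stimulated response element, bound by ISGF3 and IRF factors, was searched as GAAA, any 2 bases and GAAA on both strands, and the gamma-activated site, bound by STAT factors, as TTCNNNGAA, which reads alike on both strands. Of 32851 windows of this length, 3.44% held the first, 8.30% the second and 0.454% both. The window of the first Parp11 start held both: the response element reads TTTCGATTTC on the plus strand, from 44 to 35 bases before the start, and the activated site TTCTTGGAA from 37 to 29 bases before it, so that they share 3 bases. The windows of the second Parp11 start, of Dtx3l and of Parp12 held neither. The Dtx3l window (chr16:35938978-35939277) is set on a RefSeq start inside the GENCODE span of the gene, which ends at 35939151. It therefore covers fewer than 250 bases before the GENCODE start, and sequence further upstream was not searched. The Dtx3l bases free of annotated exons lie at the far end of this window, not next to its start. Shown are bases before a start that no annotated exon covers, 5′ to 3′ on the strand of the gene, with the joined motifs in capitals: chr6:127446740-127446839 (plus strand) for Parp11, chr16:35939207-35939277 (minus strand), in an intron of Parp9, for Dtx3l, and chr6:39118350-39118449 (minus strand) for Parp12.
Parp11: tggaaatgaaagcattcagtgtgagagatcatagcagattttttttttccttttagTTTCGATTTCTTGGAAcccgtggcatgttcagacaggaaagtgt
Dtx3l: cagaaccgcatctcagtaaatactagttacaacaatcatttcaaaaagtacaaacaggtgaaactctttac
Parp12: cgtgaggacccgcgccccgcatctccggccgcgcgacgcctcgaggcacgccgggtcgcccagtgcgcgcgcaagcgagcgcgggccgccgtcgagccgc
A match is a description of these letters and not a shown binding site. Beside it stand the log2 fold changes of 0.34 for Parp11, 0.73 for Dtx3l and 0.55 for Parp12.

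Levels of different genes were compared per kb of annotated exon. In control the order was Parp12 (8.68 ± 1.57 CPM per kb), Parp9 (4.88 ± 0.902), Parp10 (4.74 ± 0.344), Dtx3l (2.26 ± 0.293), Parp11 (1.97 ± 0.414) and Parp14 (1.58 ± 0.291; SD, n = 5). Parp12 lay above all other members in every control library. Neighbours in this order whose ranges overlapped were Parp9 and Parp10, Dtx3l and Parp11, and Parp11 and Parp14. In ADQ, Parp12 was at 12.7 ± 1.65 and Parp9 at 7.41 ± 0.636 CPM per kb. Parp14 (2.55 ± 0.368) and Parp11 (2.49 ± 0.367) had changed places there, with overlapping ranges. Other PARP family genes were at 1.03 (Parp8) to 16.2 CPM per kb (Parp3) over all 10 libraries, so the members were not set apart by level.

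**Figure D3:**
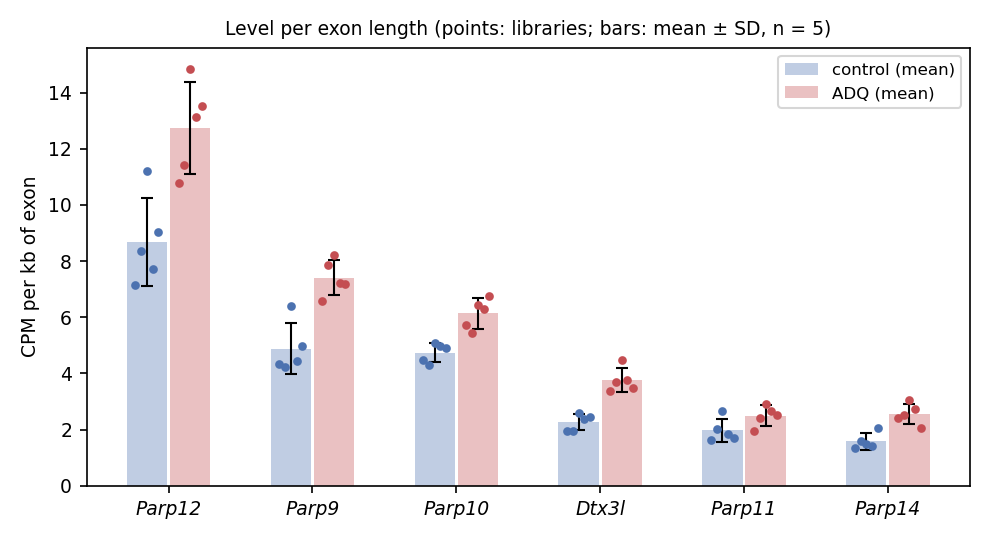
TMM-scaled CPM per kb of exon (vertical axis, from 0) of the 6 genes in order of their control mean; pale bars give the mean of 5 control (blue) or ADQ (red) libraries, points the libraries and black bars the SD. Parp12 is the highest in both groups, at 8.68 in control and 12.7 in ADQ, and Parp14 the lowest in control at 1.58.

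Within each group, 1 library was often the highest for several members. Control 3 was the highest control for 5 of the 6 genes, Parp14 being the exception, and for 5792 of the 20684 genes tested. ADQ 3 was the highest ADQ library for 5 of the 6, Parp10 being the exception, and for 4597 of the 20684. ADQ 1 was the lowest ADQ library for 4 of them. Relative to the control mean of each gene, the median of the 6 log2 values was 0.29 in control 3, against -0.21 to 0.06 in the other controls. In ADQ it ran from 0.39 in ADQ 1 to 0.78 in ADQ 3.

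Likeness of pattern was measured as the root mean square difference in log2 CPM over the 10 libraries, each gene centred on its own mean, against 13469 other protein-coding genes. It is a description in which the group difference and the libraries are shared by all genes. The nearest to Parp9 were Trafd1, a feedback regulator of innate signalling (0.099), Parp12 (0.12) and Ezh2, a histone methyltransferase (0.12). The nearest to Dtx3l were Trafd1 (0.11), Parp9 (0.12) and Cd300lf, an inhibitory receptor of myeloid cells (0.12). The distance includes the difference between control and ADQ, so genes near a called member had to differ alike, and their values are a description. Trafd1 went from 51.9 ± 6.09 to 76.9 ± 7.81 CPM (SD, n = 5; edgeR adjusted p = 0.0159), and Cd300lf from 7.07 ± 0.834 to 12.5 ± 1.42 CPM (edgeR adjusted p = 0.00756). The 6 members were not all near each other. From Parp9, Parp12 stood at place 2, Dtx3l at 4, Parp10 at 152, Parp11 at 156 and Parp14 at 411. From Parp10 the other members stood at places 578 (Parp12) to 5832 (Parp14), and from Parp11 at 618 (Parp12) to 6567 (Parp14). Places depend on the gene they are counted from. From Dtx3l they ran from 2 (Parp9) to 316 (Parp11). From Parp12 they ran from 8 (Parp9) to 786 (Parp14), and from Parp14 from 13 (Dtx3l) to 937 (Parp11). The nearest to Parp14 were Tagap, a GTPase regulator of T cells (0.13), Trim21, a cytosolic antibody receptor and ubiquitin ligase (0.14), and Rsad2, the antiviral enzyme viperin (0.15). Their log2 fold changes were 0.84, 0.76 and 0.56 (edgeR adjusted p = 0.0371, 0.0153 and 0.0948).

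The rest of the PARP family was not called. Of its 11 other genes tested, 0 passed in either direction with edgeR, voom or DESeq2. With 0.827% of all genes passing in edgeR, 0 of 11 does not set them apart from other genes. An unadjusted edgeR p under 0.05 was found for 3, all 3 with higher values in ADQ, as for 7.96% of all genes. The median log2 fold change was 0.16, and 10 of the 11 were above 0. The lowest p among them belonged to Zc3hav1, also called PARP13, an antiviral RNA-binding protein without enzyme activity. Its level was 17.6 ± 1.16 CPM in control against 22.3 ± 2.15 in ADQ (log2 fold change 0.34, SE 0.09, edgeR adjusted p = 0.128). Tnks, which encodes a tankyrase, was at 18.2 ± 1.97 and 23.5 ± 2.94 CPM (0.37, SE 0.11, adjusted p = 0.152), and Parp3, a DNA repair enzyme, at 55.9 ± 3.91 and 64.2 ± 4.58 CPM (0.20, SE 0.08, adjusted p = 0.302). Parp1 was at 37.6 ± 2.95 and 39.4 ± 3.74 CPM (log2 fold change 0.07, SE 0.09). Of the 4 other deltex ligases, the family of Dtx3l, 0 passed with edgeR, voom or DESeq2, beside the same 0.827% of all genes with edgeR. Log2 fold changes were below 0 for all 4, with a median of -0.06. With library size alone as the scaling, only 1 of the 4 was below 0 and the median was 0.02. The lowest p, the 1 under 0.05 before adjustment, was that of Dtx2 (-0.19, SE 0.08, edgeR adjusted p = 0.314).

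Among 12 genes of interferon receptors and signalling, 3 rose and 0 fell with edgeR, against 0.740% and 0.0870% of all genes. An unadjusted edgeR p under 0.05 with higher values in ADQ was found for 8 of the 12, these 3 included, against 7.96% of all genes. All 12 log2 fold changes were above 0, the median being 0.23. The 3 were Irf1, which like Irf9 is an interferon regulatory factor (55.05 ± 12.6 to 114.1 ± 4.11 CPM, log2 fold change 1.05, edgeR adjusted p = 0.00195), Stat2 and Irf9. Stat2 and Irf9, both parts of the factor ISGF3, had log2 fold changes of 0.92 and 0.46 (edgeR adjusted p = 0.011 and 0.0159). None of the receptor genes passed: Ifnar1, Ifnar2, Ifngr1 and Ifngr2 had log2 fold changes of 0.17, 0.08, 0.22 and 0.06. The feedback inhibitors Socs1 and Usp18 did not pass either (0.46 and 0.20, adjusted p = 0.169 and 0.269).

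**Figure D4:**
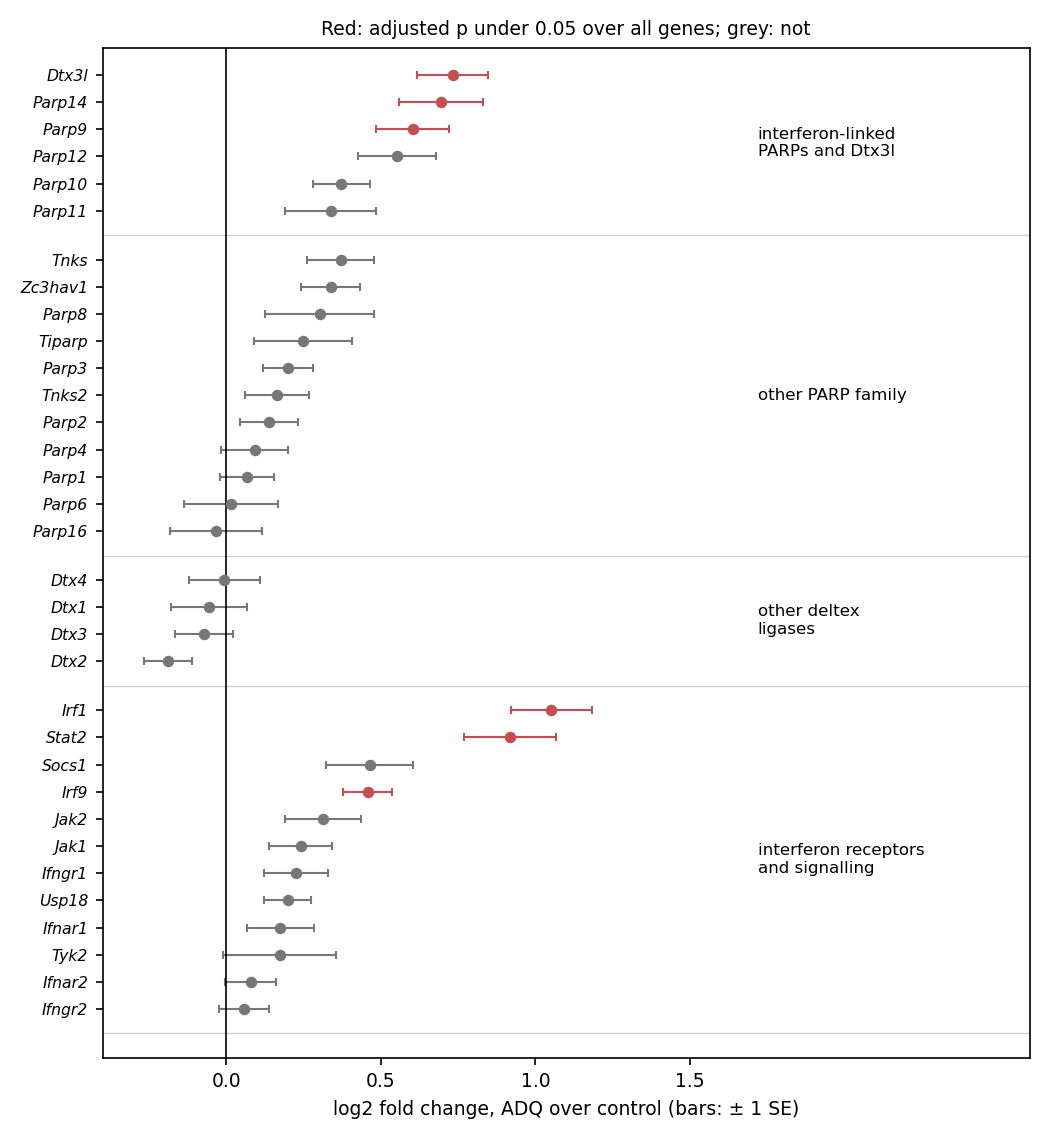
Log2 fold change, ADQ over control (horizontal axis; bars ± 1 SE), of the 6 members, 11 other PARP family genes, 4 other deltex ligases and 12 genes of interferon receptors and signalling; red marks an adjusted p under 0.05 over all genes tested. Red points are Dtx3l, Parp14 and Parp9 among the members and Irf1, Stat2 and Irf9 among the signalling genes.

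Some markers of immune cells rose in ADQ and most did not pass the test. Of 12 macrophage markers, 3 rose with edgeR (Aif1, Ptprc and Adgre1), 3 with voom and 4 with DESeq2. An unadjusted edgeR p under 0.05 was found for 5, all higher in ADQ. Log2 fold changes of 11 of the 12 were above 0, with a median of 0.30. The lowest were those of Csf1r (0.02), Cd68 (0.03) and Lyve1 (-0.59). The sum of the 12 was 1676 to 2180 CPM in control and 1759 to 2818 in ADQ. Of 8 dendritic cell markers, 1 rose with edgeR, Xcr1, 3 with voom and 5 with DESeq2. With an unadjusted edgeR p under 0.05 there were 5, all higher in ADQ. Log2 fold changes of 7 of the 8 were above 0, with a median of 0.72. The lowest were those of Siglech (0.03) and Cd209a (-0.70). The sum of the 8 was 45.5 to 61.2 CPM in control and 71.2 to 82.3 in ADQ, without overlap. Of 14 lymphocyte and NK cell markers 0 passed with edgeR or DESeq2 and 6 rose with voom. For 8 the unadjusted edgeR p was under 0.05 with higher values in ADQ. Log2 fold changes of 13 of the 14 were above 0, with a median of 0.92, and the 1 below 0 was that of Klrb1c (-0.10). The sum of the 14 was 27.4 to 89.4 CPM in control, 89.4 being control 5, and 82.6 to 117.9 in ADQ. The NK cell receptor gene Ncr1 was at 0 counts in at least 1 library, and the B cell marker Ms4a1 had at most 46. Rod photoreceptor markers summed to 582 to 2172 CPM in control and 531 to 3971 in ADQ, with 0 of 10 called by edgeR, voom or DESeq2 and 0 at an unadjusted edgeR p under 0.05. Log2 fold changes of all 10 were above 0, with a median of 1.30. Corneal and conjunctival keratins summed to 3.77 to 2261 CPM in control and 1.19 to 3.48 in ADQ, without overlap. Of these, 0 of 5 tested (Krt4, Krt5, Krt13, Krt15 and Krt19) passed with edgeR or voom and 5 fell with DESeq2, and all 5 had an unadjusted edgeR p under 0.05. Krt5, Krt12 and Krt14 were at 0 counts in at least 1 library each. Of 9 adipocyte markers tested, 0 passed with edgeR or voom and 2, Cfd and Cidec, fell with DESeq2, 5 having an unadjusted edgeR p under 0.05. Log2 fold changes of all 9 were below 0, with a median of -1.42. Their sum was 78.3 to 242.9 CPM in control and 74.0 to 107.3 in ADQ, and Adipoq was at 0 counts in at least 1 library. Of the 10 RPE markers, 0 passed with edgeR, voom or DESeq2, and 2 had an unadjusted edgeR p under 0.05, both lower in ADQ. Log2 fold changes of 7 of the 10 were below 0, with a median of -0.20. The part of all these cells in the differences of the 6 genes was not tested. Without control 3, which had most keratin, Parp9, Dtx3l and Parp14 had log2 fold changes of 0.72, 0.79 and 0.68, and Parp14 lost its call (edgeR adjusted p = 0.0525). Without control 1, which had most rod markers of the controls, they had 0.57, 0.69 and 0.64, and Parp9 and Parp14 lost theirs (edgeR adjusted p = 0.0869 for both). Without control 5, which had the most macrophage and lymphocyte markers of the controls, they had 0.61, 0.76 and 0.81, and all 3 kept their calls.

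The authors' deposited table gives higher values in ADQ for the same 6 genes. There, in the authors' deposited table, adjusted p-values under 0.05 are listed for 5 of the 6, against 3.79% of its 15860 genes called higher. The authors' deposited table lists log2 fold changes of 0.71 for Parp9 (adjusted p = 0.0011), 0.80 for Dtx3l (9.2e-04) and 0.75 for Parp14 (0.00341). For Parp12 and Parp10 the authors' deposited table lists 0.62 (adjusted p = 0.00452) and 0.40 (0.0176), and for Parp11 0.41 (0.0615). Parp12 and Parp10 also passed with DESeq2 and with voom and quality weights, where 5 of 6 members were called, against 2.13% and 2.47% of all genes called higher. Thus Parp12 and Parp10 lie on different sides of the threshold with different tools, and Parp11 did not pass with any of them. With edgeR under RLE scaling, upper quartile scaling, library size alone, a stricter filter or a non-robust fit, 3 members were called, against 0.720, 0.682, 1.04, 1.03 and 0.778% of all genes called higher. With no count filter 4 members were called, Parp12 among them, against 0.491%, and 5 with replicate numbers as a block, against 1.90%. Without control 1, 2 or 4, or ADQ 2, 3 or 4, Dtx3l was the 1 member called, against 0.426, 0.454, 0.326, 0.361, 0.446 and 0.380% of all genes. Without ADQ 5, 2 members were called (0.716% of all genes), without control 3 or 5, 3 (0.711 and 1.50%), and without ADQ 1, 4 (0.606%).

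**Figure D5:**
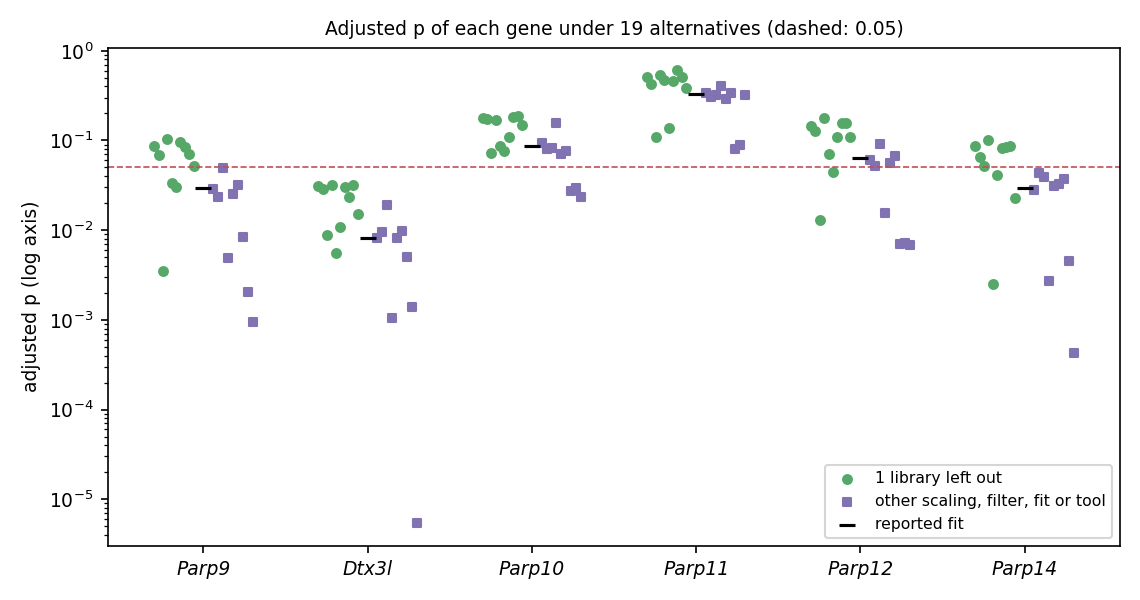
Adjusted p (vertical log axis) of each of the 6 genes in the reported fit (black dash), with 1 library left out (green points, 10 for each gene) and with another scaling, filter, fit or tool (purple squares, 9 for each gene); the dashed line is at 0.05. All points of Dtx3l lie under the line, all points of Parp11 above it, and the other 4 genes have points on both sides.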

How the data were processed

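RNA of 5 control and 5 ADQ samples was compared. Per the labels' protocols, RNA was purified on columns and cDNA was made with SMARTer amplification. GRCm38, bcl2fastq, DRAGEN, edgeR and limma appear in the submitters' processing notes, without roles or versions. The deposited table holds raw counts per Ensembl gene; 287 repeats of an identifier were dropped. A second table, deposited by the authors, gives log2 CPM, log2 fold changes and p-values, raw and adjusted, and a score (t and B statistics) that was not used. Groups and replicate numbers came from the titles.

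Counts were fitted with edgeR 4.0.16 (limma 3.58.1, R 4.3.3): filterByExpr (minimum count 10, minimum total 15) kept 20684 genes, scaled by TMM, with a robust quasi-likelihood fit on group and Benjamini-Hochberg adjustment at 0.05. The code was checked on counts simulated from that fit. The check set no requirement on recovery of changes as small as those of the members. The SE was taken as the absolute log2 fold change divided by √F. Log2 CPM used a prior count of 2. Exon lengths come from GENCODE M21, which holds 99.5% of the identifiers. Control 1 to 5 and ADQ 1 to 5 share only numbers: same-numbered libraries did not deviate together. Alternatives were 3 scalings, 2 filters, DESeq2 1.42.0, a non-robust fit, limma's voom (quality weights), a replicate block and each library left out. Named genes are the members, called genes and up to 3 with the smallest p of each pathway list, the 3 nearest in pattern to each called member (protein-coding, mean of at least 1 CPM) and tested genes within 100 kb. Parp1, Parg, Parp8, the receptor genes and Usp18 were named after their values were seen, as were the marker genes Ncr1, Ms4a1, Adipoq, Cfd, Cidec, Csf1r, Cd68, Lyve1, Siglech, Cd209a, Klrb1c and the keratins. A gene of the interferon signalling list is not reported here and was left out of its counts. Members and lists were chosen with earlier results of these data known.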

Additional observations from a re-analysis of the deposited data

How the results depend on the processing

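All 6 members kept a log2 fold change above 0 under each of 19 alternatives. Dtx3l was called in 19 of them, Parp9 and Parp14 in 12, Parp12 in 6, Parp10 in 3 and Parp11 in 0. Members called numbered 5 of 6 with DESeq2 and with voom, and 1 to 4 when 1 library was left out, Dtx3l being the 1 called each time. Over all genes 768 were called with DESeq2 (502 higher, 266 lower) and 664 with voom (511 higher, 153 lower), against 171 (153 higher, 18 lower). With no count filter 203 were higher and 32 lower, and with the non-robust fit 161 higher and 41 lower. Leaving out 1 library gave 78 to 357 called genes, the lowest without control 4 (78), ADQ 2 (81), ADQ 4 (87), control 1 (96) and ADQ 3 (99), and the highest without control 5. Members called were 1 without control 1, 2 or 4 or ADQ 2, 3 or 4. The replicate block called 694 genes (392 higher, 302 lower) and 5 members. Deviations of same-numbered libraries correlated at 0.033, 0.030, 0.16, 0.015 and -0.11, and 2 of 10 libraries correlated best with their own number, so the numbers are not taken as pairs. The log2 difference of the Dtx3l to Parp9 ratio ran from 0.067 to 0.17 without 1 library, and with the replicate block it was 0.12 (exact sign-flip permutation p = 0.375). The cause of these changes was not tested. With library size alone as the scaling, the all-gene median moved by 0.097 (log2), and with it the sign of the list medians nearest to 0. Counts of the 6 genes were at least 489 in every library, where counting error was at most 4.52% of a value. Whether depth bears on their calls was not tested.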

Other observations

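Genes that supply or use NAD, the substrate of PARP enzymes, and genes that remove ADP-ribose were listed alongside the family. Of 13 NAD genes, 1 rose and 0 fell with edgeR. Log2 fold changes of 9 were below 0, and the median was -0.04, but 6 and 0.04 with library size alone as the scaling. The 1 that rose was Nampt, the rate-limiting enzyme of NAD salvage, from 34.2 ± 3.10 to 46.5 ± 2.46 CPM (SD, n = 5), by 0.44 on the log2 scale (SE 0.08, edgeR adjusted p = 0.0218). Cd38, an enzyme of immune cells that consumes NAD, was at 9.05 ± 3.18 and 13.6 ± 3.65 CPM (0.58, SE 0.25, adjusted p = 0.332), and Naprt, which makes NAD from nicotinic acid, at 20.2 ± 1.73 and 16.9 ± 3.03 CPM (-0.26, SE 0.12, adjusted p = 0.365).

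Of 6 genes of ADP-ribose removal, 0 passed with edgeR or DESeq2 and 1, Macrod1, fell with voom (adjusted p = 0.0481), 2 having an unadjusted edgeR p under 0.05. Log2 fold changes of 4 were below 0, and the median was -0.07, but 3 and 0.01 with library size alone. Macrod1, a hydrolase that takes single ADP-ribose units off proteins, had 147.1 ± 17.2 CPM in control against 113.4 ± 22.1 in ADQ (-0.38, SE 0.13, adjusted p = 0.226). Adprhl2, which cleaves ADP-ribose from serine, was at 62.6 ± 4.60 and 53.3 ± 5.84 CPM (-0.23, SE 0.09, adjusted p = 0.288). Parg, which cuts the chains, was at 15.5 ± 2.08 and 17.2 ± 3.21 CPM (0.15, SE 0.14, adjusted p = 0.644).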
